A study of Malus hupehensis with 3 samples.

Results

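The degradome of juvenile (J) leaves of Malus hupehensis paired 271 apple gene models with miRNAs, and the gene models described here are 53 of them, chosen by the predicted miRNAs they were paired with. Those in records of a predicted miRNA were taken, which gave 168. Of these, 89 were dropped because they had a record of novel_mir_329, novel_mir_110 or novel_mir_157, and 26 because they had a record of a known apple miRNA (an mdm-miR name). No gene model was dropped for both reasons. The 53 left were paired with 23 predicted miRNAs in 86 records, which stand for 84 sites when each gene model and position is counted. The leaves were pooled from the base (J) and the tops (adult, A) of 18 6-year-old trees, which carried no treatment or transgene in the labels, so phase goes with place on the tree. Small RNAs were sequenced in 1 library of A and 1 of J, and the degradome in 1 library of J. No library has a replicate, so no test and no spread between samples is given, and gene models and sites are not replicates of a condition.

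In plants, a miRNA is loaded into an ARGONAUTE protein and guides it to an mRNA with a nearly complementary stretch, where the mRNA is cut between the bases opposite bases 10 and 11 of the miRNA. The downstream fragment keeps a free 5′ phosphate, and degradome sequencing collects such fragments, so that a pile of reads starting at one base marks a cut or another 5′ end of a decaying mRNA. Conserved plant miRNAs are known for targets among transcription factors and signalling genes, while predicted miRNAs of one species are often young loci with few reads.

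Each record gives the site in the gene model, the count there and the pairing score. The count was read as the number of degradome reads starting at the site, although the file does not say so. The score equalled 1 for each mismatch plus 0.5 for each G:U wobble pair in 2204 of the 2204 records, so that 0 is a perfect pairing, and no record had a score above 4. The place of a site in the pairing is given as the miRNA base opposite it, and base 10 is the base opposite the start of a fragment cut in the usual way. In all records this base lay between 6 and 17. All 2204 records lay on gene models with a length that is a multiple of 3, so positions are given along a coding length and UTRs are not covered.

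The pairings with the fewest mismatches and the ones with the largest counts are printed here because the results turn on them. Also printed are the differing stretches of novel_mir_310 and novel_mir_89, and novel_mir_374 and novel_mir_506, which had the same seed. The mature miRNAs are written 5′ to 3′ as DNA, as in the degradome file, with the seed (bases 2 to 8) in capitals. The mature sequence of novel_mir_11 holds an ambiguity letter and is not printed.
novel_mir_486: tGCATTTGcacctgcacttgt
novel_mir_310: aCAGGTTGaaatatcattctt
novel_mir_89: tCCACACAtcatctaggacaa
novel_mir_351: aAGGGGTGggagagtgggcta
novel_mir_477: tGATGAAGaagaagctgctaa
novel_mir_374: tAGTGGAGgaaatgttgcatg
novel_mir_506: aAGTGGAGgggttgatttgacaa

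The paired stretches of the gene models are written 5′ to 3′ on the mRNA strand, and the capital marks the base at the site with the largest count. The first is the stretch paired with novel_mir_11, the next is paired with novel_mir_486, and then come the stretches of novel_mir_310, novel_mir_89, novel_mir_351 and novel_mir_477.
MDP0000138851: aaccatggtgcTaaaacttca
MDP0000147872: tcaggtgcaggTgcaaatgca
MDP0000231845: aagaatgatatttCaacctgt
MDP0000282616: aatacggatgtttCaacctgt
MDP0000142444: ttgtgtttgatgAtgtgtgga
MDP0000196621: ttgtgttggatgAtgtgtgga
MDP0000137113: ttgcgtttgatgAtgtgtgga
MDP0000228719: tagctcaCtctctctctctct
MDP0000221713: tcagccgCttcttcttcttct

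The predicted miRNAs were 20 nt (2), 21 nt (16), 22 nt (1) or 23 nt (4) long, and only novel_mir_374 and novel_mir_506 had the same seed among the 23. These shared no gene model. Of the 23, 8 had a single gene model, 9 had 2, 4 had 3, and novel_mir_310 and novel_mir_89 had 8 and 9. Protein names were found in the study's published target list for 44 of the 53 gene models, with 23 different names, and the 9 without one are the 8 targets of novel_mir_310 and MDP0000180084 of novel_mir_419. The names are listed there beside an Arabidopsis thaliana locus, with no statement of how it was assigned, and the roles stated with them are known from Arabidopsis.

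A site opposite base 10 was found in 5 of the 53 gene models, or 9.43% (exact Clopper-Pearson 95% interval 3.13 to 20.7), against 51.7% of all 271. The corresponding share was 91.5% (85.3 to 95.7) of the 129 gene models with a known miRNA and 19.1% (11.5 to 28.8) of the 89 paired with novel_mir_329, novel_mir_110 or novel_mir_157. These intervals cover counting error only, and gene models with the same site are not independent, so the sets are given side by side with no test. Any record of a gene model could give a site opposite base 10, and the 129 had 1575 records against 86 for the 53. Allowing 1 base to either side of base 10 took in 28 of the 53 (52.8%), 184 of all 271 (67.9%), 125 of the 129 (96.9%) and 31 of the 89 (34.8%). Below, a target is a gene model paired with the miRNA in a record. The 129 are called known targets in that sense alone.

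The largest site lay opposite base 8 in 8 gene models, base 9 in 14, base 10 in 4, base 11 in 6 and bases 12 to 17 in 21. All 8 at base 8 were targets of novel_mir_310. Among the 14 at base 9, 9 were targets of novel_mir_89, and the other 5 belonged to novel_mir_446 and novel_mir_422. Thus the 2 miRNAs with most gene models made up 17 of the 22 gene models with a largest site at bases 8 and 9. The shares at bases 8, 9, 10 and 11 were 15.1%, 26.4%, 7.55% and 11.3% of the gene models described here. Over all 271, which include these, they were 2.95%, 7.75%, 43.9% and 5.17%. At single bases from 12 to 17, the shares ran from 3.77% to 9.43% here and from 2.21% to 12.5% over all 271.

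**Figure D1:**
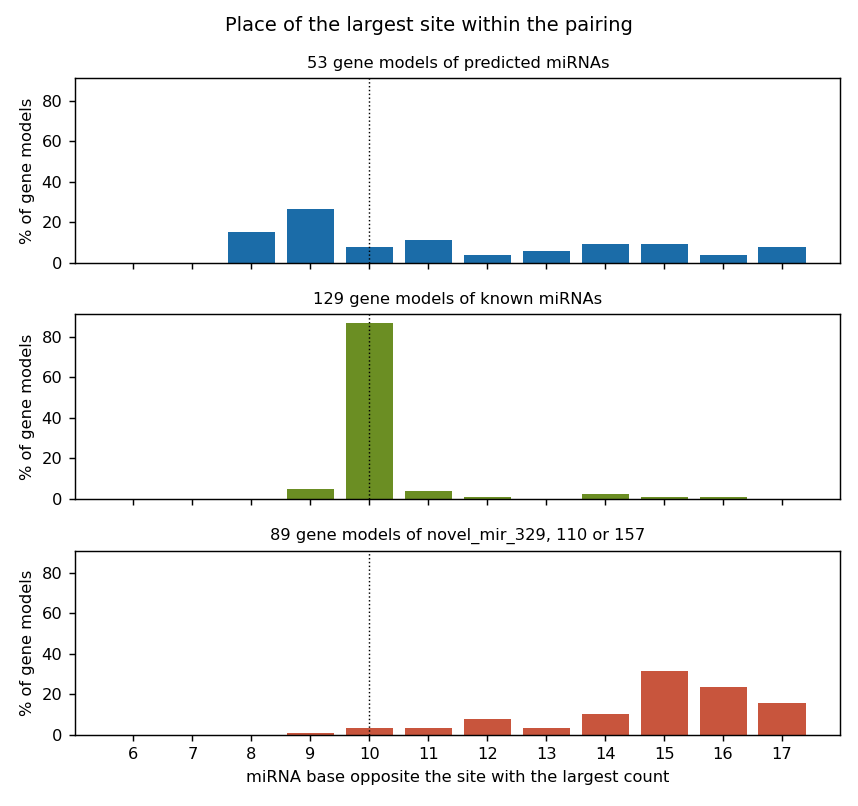
Percent of gene models (y axis) by the miRNA base opposite the site with the largest count (x axis), for the 53 gene models of predicted miRNAs, the 129 of known miRNAs and the 89 of novel_mir_329, novel_mir_110 or novel_mir_157, with a dotted line at base 10. The known targets stand at base 10 with 86.8%, the 53 are spread over bases 8 to 17 with 7.55% at base 10, and the largest bar of the third set is at base 15 with 31.5%.

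The 5 gene models with a site opposite base 10 were paired with novel_mir_486, novel_mir_11 and novel_mir_351. MDP0000147872 and MDP0000196131, both named zinc knuckle (CCHC-type) family protein, had the largest counts among the 53 outside repeat-like windows. The count was 395 at base 240 of 3342 in MDP0000147872 and 395 at base 375 of 3282 in MDP0000196131. Their paired stretches were the same, with a score of 1.5 from a mismatch at base 21 and a wobble pair at base 18 of novel_mir_486. The counts were equal, the 17 bases from the site on were identical, and they were counted as 1 site wherever distinct sites are given. The same miRNA was paired with MDP0000125742, named phospholipase D delta, an enzyme that releases phosphatidic acid from membrane lipids. Its site at base 1507 of 2475 had a count of 55, lay opposite base 11 and had a score of 4.

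MDP0000138851 and MDP0000208234, paired with novel_mir_11, were named flavin-containing monooxygenase family protein. The Arabidopsis gene listed with them belongs to the YUCCA family, whose enzymes act in auxin synthesis. Both had a count of 229 at base 594, opposite base 10, in gene models of 1149 and 1146 bases. MDP0000138851 had a further site 1 base upstream with a count of 145, opposite base 11. The score was 1 for both, and the only mismatch was at base 15, where the deposited miRNA sequence has its ambiguity letter. Hence each of the other 20 bases was paired, with no wobble pair.

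The gene model with the largest counts of the whole file was MDP0000228719, paired with novel_mir_351 and named response regulator 2, a transcription factor of cytokinin signalling. It had 9 sites in a row from base 37 to base 45 of 1926. The counts in that order were 32, 205, 6757, 3893, 6756, 3887, 3936, 376 and 187. The site at base 43, with 3936, lay opposite base 10, but the sites at bases 39 and 41, opposite bases 14 and 12, had larger counts. Together the 9 sites held 26029 of the 31246 counts over all 84 sites, or 83.3%, and 90.2% of the 28862 over the 50 sites that differ in these 17 bases or in count, an alternative added after seeing the data. The largest count of a known target was 1661 and the largest among the 53 outside this gene model was 395. The score of 4 came from mismatches at bases 2 and 7, inside the seed, and 4 wobble pairs. Its stretch is a run of CT, as printed above. In the 31-base window of the largest site, 72.4% of the bases equalled the base a fixed number of places before. This was the highest share among distances of 1, 2 and 3 places.

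**Figure D2:**
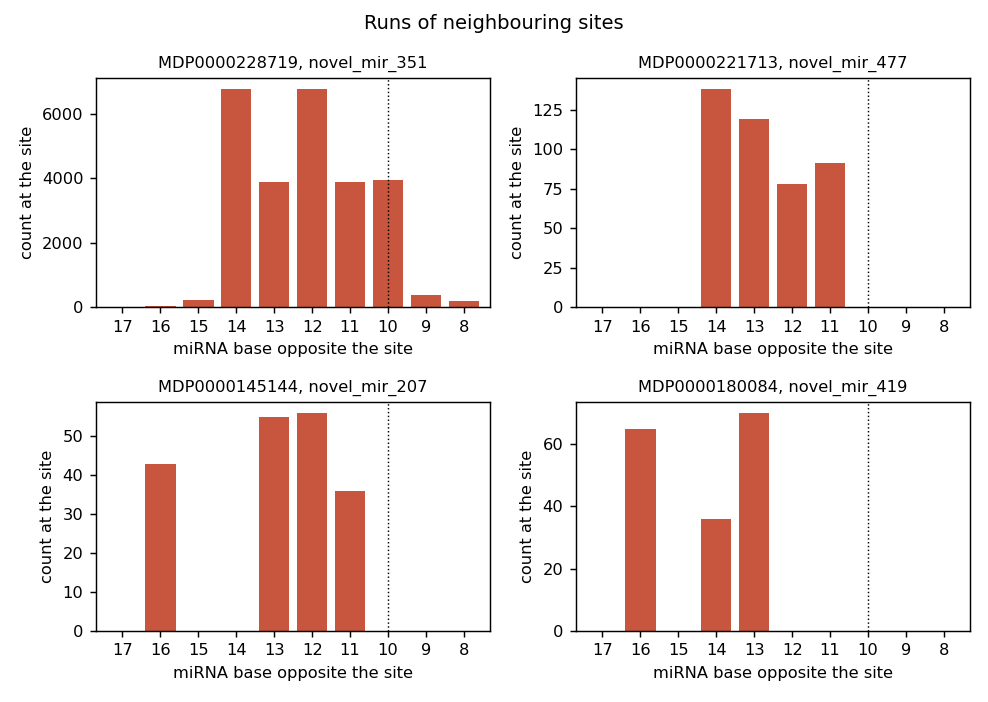
Count at each site (y axes, with different scales) by the miRNA base opposite it (x axes, drawn from base 17 to base 8 so that the mRNA runs 5′ to 3′), in 4 gene models with 3 or more sites, with a dotted line at base 10. Only MDP0000228719 among the 4 has a bar at base 10, of 3936, and its highest bars, 6757 and 6756, stand at bases 14 and 12.

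A window of 31 bases is called repeat-like here if at least 60% of its bases equal the base a fixed number of places before. Distances of 1, 2 and 3 places were tried singly, and the highest share was kept. Bases with no base at that distance before them were left out. By this measure the choice of gene models did not remove repeats in full. The largest site lay in a repeat-like window in 7 of the 53 (13.2%), compared with 33.2% of all 271, 82 of the 89 dropped (92.1%) and 1 of the 129 known targets. The 7 were MDP0000228719, MDP0000221713, MDP0000716496, MDP0000930655, MDP0000145144, MDP0000824044 and MDP0000180084. Nearest to the limit were MDP0000145144, MDP0000824044 and MDP0000716496 with 60.7% inside it and MDP0000509438 with 53.6% outside. Whether the repeats bear on the counts or on the place of the sites was not tested.

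The CTT repeats of novel_mir_477 and novel_mir_169 were also found in gene models that had been dropped. MDP0000221713, named aldehyde dehydrogenase 2B4, had counts of 138, 119, 78 and 91 at bases 50 to 53 of 1653, opposite bases 14, 13, 12 and 11. The 17 bases from its site at base 50 were found in 16 gene models outside the 53, and 15 of these had the same count of 138. MDP0000930655, named Integrase-type DNA-binding superfamily protein, had counts of 119 and 55 at bases 308 and 309 of 438, and 14 other gene models outside the 53 had the same 17 bases with a count of 119. MDP0000716496, named for OPC-8:0 CoA ligase1, which acts in jasmonate synthesis, had a count of 93 at base 1643 of 1671, and none of the 16 other gene models with those 17 bases had this count. At the other sites of MDP0000221713 and MDP0000930655, the 17 bases were found in 16 to 25 gene models outside the 53. None of the other 50 gene models had a site with this match. All pairs of novel_mir_477 and novel_mir_169 had a score of 4.

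Phytosulfokine is a short sulfated peptide that promotes growth and is cut from a precursor protein. The 3 gene models of novel_mir_207 were all named phytosulfokine 4 precursor. MDP0000145144 and MDP0000824044, both of 261 bases, had the same counts of 43, 55, 56 and 36 at bases 88, 91, 92 and 93. MDP0000509438, of 258 bases, had 25, 43, 26 and 50 at bases 84, 85, 87 and 88. The 12 sites lay opposite bases 11 to 17 and none opposite base 10. The scores were 3 in the first pair of gene models and 3.5 in the third, each with a mismatch at base 2 and 2 wobble pairs in the seed. In MDP0000180084, which has no published name, novel_mir_419 was paired with a repeat of GAC and GAT, with counts of 65, 36 and 70 at bases 101, 103 and 104 of 282 and a score of 4.

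**Figure D3:**
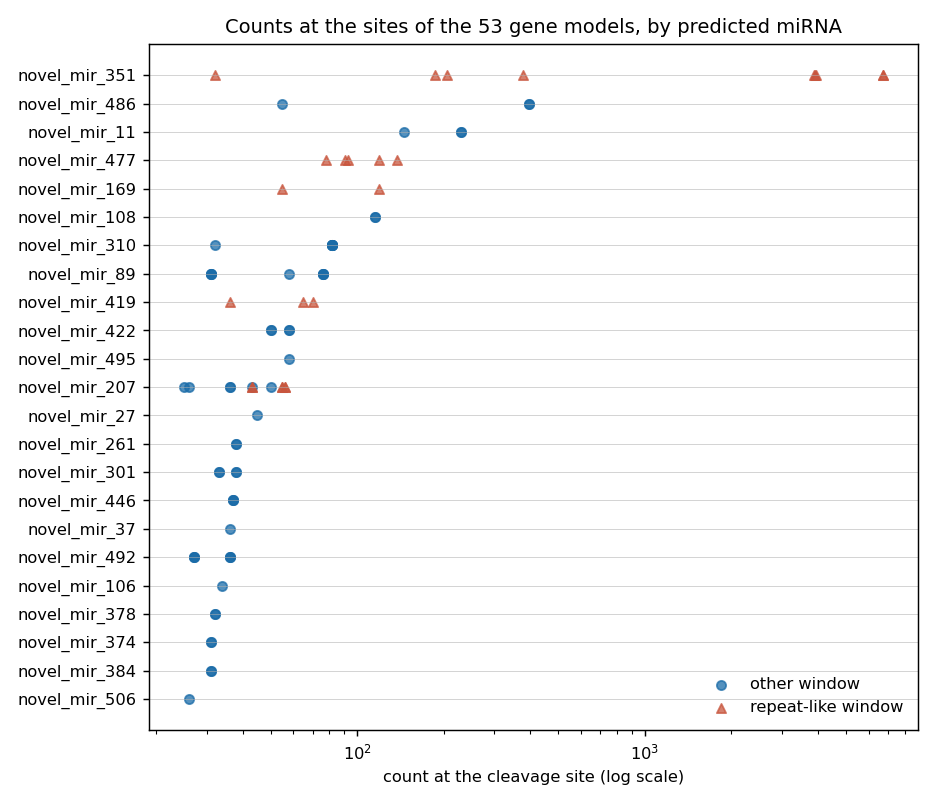
Count at each site on a log scale (x axis) by predicted miRNA (y axis, ordered by the largest count), with circles for sites in other windows and triangles for sites in repeat-like windows, where darker symbols are sites of several gene models with the same count. The triangles of novel_mir_351 reach 6757, the circles reach 395 with novel_mir_486, and most symbols lie under 100.

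A site count of 100 or more was found in 9 of the 53 gene models (17%), against 31.4% of all 271 and 58 of the 129 known targets (45%). The largest count per gene model ran from 26, in MDP0000182713, to 6757, and its median was 56. The median was 80 for the known targets, 43 for the targets of novel_mir_329, novel_mir_110 or novel_mir_157, and 56 for all gene models. A largest count under 50 was seen in 23 of the 53. The smallest count of any record was 25, so weaker sites are not in the file, and the depth of the degradome library is not given by it.

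The best score of a gene model is the lowest over its records. There were 86 records for the 53, 2204 for all 271 and 1575 for the 129 known targets. More records per gene model give more chances of a low score. A best score of 2.5 or less was found in 19 of the 53 (35.8%), against 46.9% of all 271 and 76 of the 129 known targets (58.9%). These 19 belonged to novel_mir_310 (7), novel_mir_89 (8), novel_mir_11 (2) and novel_mir_486 (2), and each shared its largest site with at least 1 other of them. At the other end, 25 of the 53 (47.2%) had a best score of 4, the highest in the file, compared with 70 of all 271 (25.8%), 18 of the 129 (14%) and 27 of the 89 (30.3%). Over the 55 pairs of a miRNA and a gene model, 36 had no mismatch in the seed, and 21 of these had no wobble pair there either. Both bases 10 and 11 were in Watson-Crick pairs in 44 of the 55. These seed and centre counts are not given for all pairs of the file, so they are not read as a trait of the 53. The median score of the 55 pairs was 3.5, and it was 4 when gene models that share a site were counted once (29 pairs).

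The lowest scores belonged to novel_mir_310. Its pairing with MDP0000231845, MDP0000278387, MDP0000279197, MDP0000280486 and MDP0000309445 was perfect, with a score of 0. MDP0000283092 and MDP0000320563 had a score of 1, and their single mismatch, at base 11, falls on an ambiguity letter in the gene model. All 7 had a count of 82, although their sites lay from base 503 to base 842 and at 52.7% to 89.1% of the length. The eighth, MDP0000282616, had a count of 32 at base 524 of 1530 and a score of 3.5. It had the same 17 bases from the site on as the others but another count, so these 17 bases did not fix the count. In each of the 8 the site lay opposite base 8, which is 2 bases from base 10, and no gene model of the other sets had its largest site there.

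The 9 gene models of novel_mir_89 were named as disease resistance proteins with an NB-ARC domain, a nucleotide-binding switch of intracellular immune receptors. They fell into 3 groups by count and stretch. The count was 76 and the score 2.5 in MDP0000142444, MDP0000242361, MDP0000249156 and MDP0000662922. It was 31 and the score 2 in MDP0000196621, MDP0000206335, MDP0000241462 and MDP0000243301. In MDP0000137113 the count was 58 and the score 3.5. All 9 had a mismatch at base 17 and no mismatch or wobble pair in the seed, and the gene models with the lowest score had the lowest count. The site lay opposite base 9 in each of the 9. Positions ran from base 146 to base 1253, or 6.02% to 44.1% of lengths of 2316 to 3087 bases, and all were at the same place within a codon.

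Several other pairs concerned hormone signalling and growth. BRI1-associated receptor kinase is a co-receptor for brassinosteroids and for immune receptors. Its 3 gene models MDP0000287771, MDP0000291093 and MDP0000309283, paired with novel_mir_492, had counts of 36 and 27 at neighbouring bases opposite bases 17 and 16, with a score of 4. MDP0000278275 and MDP0000682675, named cell elongation protein dwarf1/diminuto, an enzyme of brassinosteroid synthesis, had a count of 38 opposite base 11 of novel_mir_261, at bases 2352 of 2760 and 2009 of 2061. Their score of 4 came from 4 mismatches, of which 2 were in the seed. MDP0000401140 and MDP0000633218, named related to AP2 4, a transcription factor, had 2 sites 6 bases apart. The count was 50 at base 244, opposite base 15 of novel_mir_422, and 58 at base 250, opposite base 9. None of these 7 gene models had a site opposite base 10.

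Gene models for sulfur amino acid recycling were paired with 3 predicted miRNAs. S-adenosyl-l-homocysteine hydrolase 2 clears the product of methylation reactions, and its gene models MDP0000212365 and MDP0000679173 had a count of 31 at base 260. These were the only gene models among the 53 with more than 1 predicted miRNA. The site lay opposite base 15 of novel_mir_374, with a score of 3.5, and opposite base 12 of novel_mir_384, with a score of 4, so that 1 site was paired in 2 registers. S-methyl-5-thioribose kinase acts in the recovery of methionine. Its gene models MDP0000148984, MDP0000234656 and MDP0000278395 had a count of 37 opposite base 9 of novel_mir_446, with a mismatch at base 11.

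Gene models for RNA, translation and lipids followed. MDP0000242219 and MDP0000303270, named as RNA-binding proteins with RRM motifs, had a count of 115 opposite base 11 of novel_mir_108, with a score of 3.5. Their sites were both 265 bases from the end, at base 1820 of 2085 and base 3125 of 3390. Valine-tRNA ligase, which charges tRNA with valine, was represented by MDP0000155593 and MDP0000238240 with a count of 32 opposite base 15 of novel_mir_378, and neither base 10 nor base 11 was paired. MDP0000247249, named translation initiation factor IF6, had a count of 36 opposite base 13 of novel_mir_37. The phospholipid/glycerol acyltransferase gene models MDP0000171689 and MDP0000532750 had counts of 38 and 33 opposite bases 14 and 12 of novel_mir_301. MDP0000182713, a GDSL-like lipase of novel_mir_506, had a count of 26 opposite base 15. All of these except the RNA-binding proteins had a score of 4.

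The remaining 3 gene models each had a single site and a score of 4. MDP0000412849, named plasmodesmata-located protein 2 after a protein of the channels between plant cells, had a count of 45 at base 37 of 903, opposite base 11 of novel_mir_27. MDP0000320808, an ENTH/VHS/GAT family protein, had a count of 58 opposite base 16 of novel_mir_495. MDP0000405151, a late embryogenesis abundant hydroxyproline-rich glycoprotein, had a count of 34 opposite base 16 of novel_mir_106.

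Of the 53 gene models, 40 shared their largest site with at least 1 other of the 53, by the same 17 bases from the site on and the same count. Counted in this way there were 28 distinct largest sites and 50 distinct sites in all. More than 1 site was listed for 15 of the 53 gene models, against 102 of all 271. Only 1 site was listed for 38 of the 53 and 2 sites for 9, while 6 had 3 or more, against 68 of all 271. Those 6 were the targets of novel_mir_207, MDP0000228719, MDP0000221713 and MDP0000180084.

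The largest sites lay all along the gene models, with a median at 52.5% of the length, compared with 36.9% for all 271, 57.1% for the known targets and 13.7% for the targets of novel_mir_329, novel_mir_110 or novel_mir_157. The median of 52.5% became 45.5% when gene models that share a site were counted once (28), and 35.7% over all 84 sites. The other sets were not recounted in these ways. The first 10% of the length held 5 of the 53 and the last 10% held 4, against 47 and 27 of all 271. Gene models of 1 miRNA with the same site sequence could differ in position, as with novel_mir_378, whose site lay at 54% in MDP0000155593 and 81.9% in MDP0000238240.

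**Figure D4:**
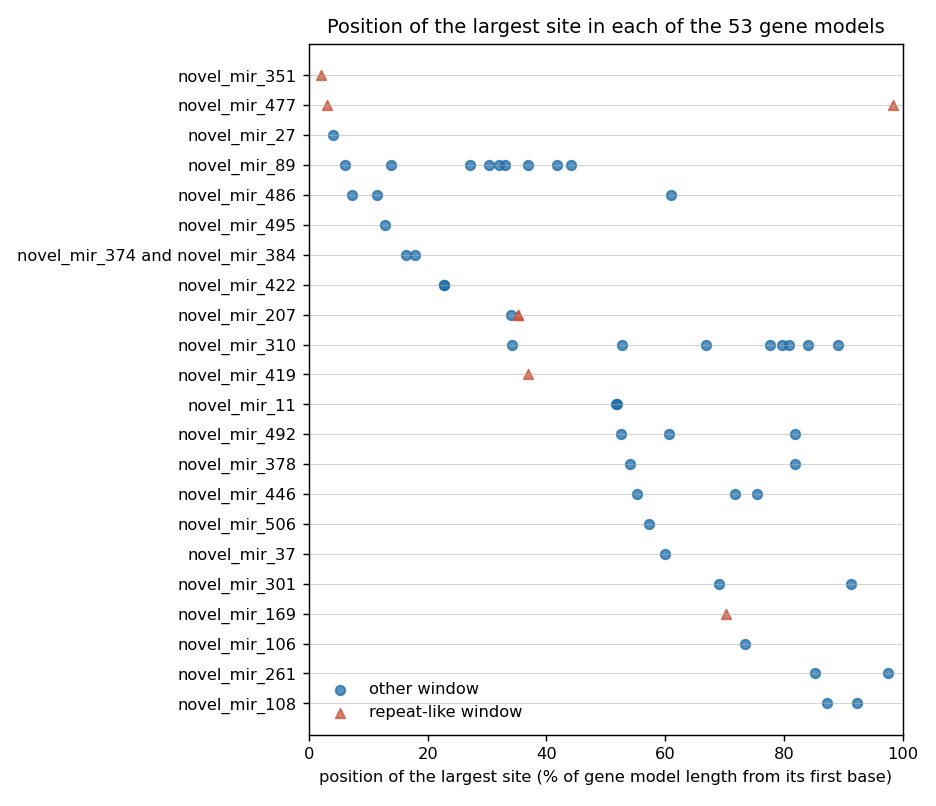
Position of the largest site as a percent of the gene model length (x axis) by predicted miRNA (y axis), 1 symbol for each of the 53 gene models, with triangles for repeat-like windows. The targets of novel_mir_89 lie between 6.02% and 44.1%, those of novel_mir_310 reach 89.1%, and the triangles lie at both ends and in the middle.

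Reads in the small RNA libraries were listed for 13 of the 23 predicted miRNAs, by exact match of the mature sequence, and the other 10 had no entry. The 13 were paired with 38 of the 53 gene models. Reads in J, the phase of the degradome, were counted for 12 of them, with 36 gene models, and reads in A for 7. The highest count in J was 198, for novel_mir_486, which had 0 in A. novel_mir_89 had 111 reads in J and 128 in A, novel_mir_310 had 32 and 30, and novel_mir_207 had 110 and 52. These reads are not scaled to library depth, and the paper reports more clean reads for A than for J. No difference between A and J is therefore read from them. novel_mir_11, whose targets had a site opposite base 10, had 0 reads in J and 34 in A. The entries of predicted miRNAs hold no count from 1 to 4, so a 0 is not a measured absence. novel_mir_351, with the largest site counts, was among the 10 without an entry.

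**Figure D5:**
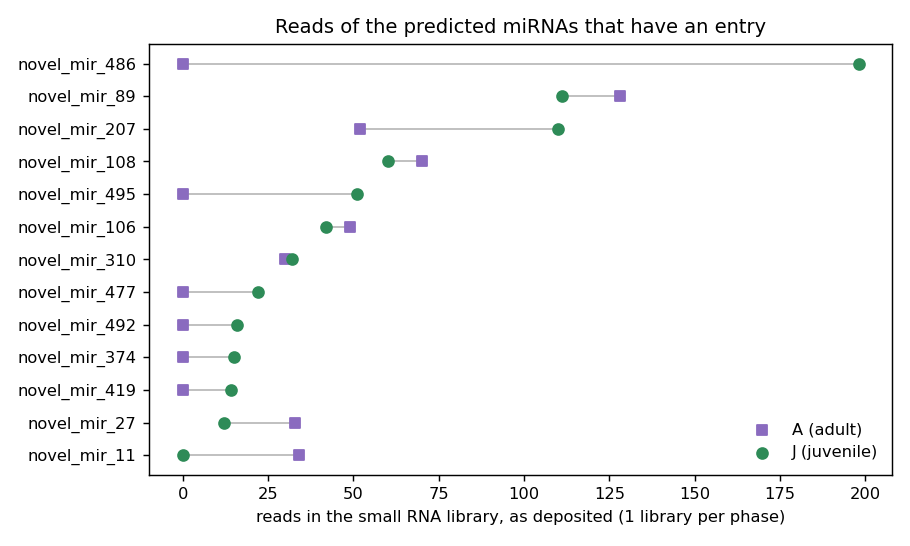
Reads as deposited, without normalization (x axis), of the 13 predicted miRNAs with an entry (y axis, ordered by reads in J), in A (squares) and J (circles), 1 library each. The circle of novel_mir_486 is farthest to the right at 198, and 6 miRNAs have their square at 0.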

How the data were processed

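Leaves of Malus hupehensis were sampled as described above, with 1 library per group and no replicates. The authors matched degradome fragments to the apple genome, removed non-coding RNA and paired sites with miRNAs in PairFinder, and the deposited records give site, site count and score. The aligner of the degradome fragments and the genome release are not given in the sources used here. The deposited small RNA counts are raw reads for 380 entries per library, summing to 4272351 in A and 6275651 in J, which is not the library depth.

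Each record shows 31 bases, and the site was placed at base 15 because the window starts with ATG wherever a site has position 15 in its gene model (3 records). Distinct sites shared 17 bases and a count. The largest site of a gene model has its largest count. Named in full were the 10 largest sites, pairs with a score up to 2.5, miRNAs with 3 or more gene models and gene models with 3 or more sites. The other gene models were named by the published list. The gene models, groups and measures were chosen with earlier results of these data known. Alternatives changed the count, score, repeat and sharing rules. Reading of the records was tested on simulated data. Python 3.11.15, SciPy 1.17.1 and matplotlib 3.10.9 were used.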

Additional observations from a re-analysis of the deposited data

How the results depend on the processing

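The number of gene models was 53, and it became 142 when targets of novel_mir_329, novel_mir_110 and novel_mir_157 were kept, 30 with a site count of at least 50, 9 with at least 100, 28 with a score of at most 3.5, 19 with at most 2.5, and 5 with a site opposite base 10. The 50 distinct sites became 84 when each gene model and position was counted, 30 with a count of at least 50 and 17 with a score of at most 3.5. The share of pairs with a site opposite base 10, 9.09% of 55 (exact 95% interval 3.02 to 20), became 50.9% with bases 9 to 11, and it was 7.27% to 16.7% under the other 5 alternatives. With sites opposite base 10 only, over 5 gene models, the median largest count of 56 became 395 and the median score of 3.5 became 1.5. Of these 5, MDP0000147872 and MDP0000196131 share a site, MDP0000138851 and MDP0000208234 share another, and MDP0000228719 has its site in a repeat-like window. These medians therefore rest on fewer distinct sites than gene models. The 7 gene models with a repeat-like window became 1 when 70% of the bases were required, and this 1 was MDP0000228719. The share of counts at MDP0000228719, 83.3%, became 90.2% over distinct sites. The other 17 of the 31 alternatives moved a count by less than 1.5 times or left a share or median inside its interval. That interval is too narrow for gene models that share a site. No paired analysis was possible because there is 1 library per group. Sites with a count under 25 and the depth of the degradome library limit what can be seen, and a second library would be needed for any spread.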

Other observations

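The 26 gene models dropped for a record of a known miRNA were paired with 7 predicted miRNAs, and all sites of these predicted miRNAs there were also listed for a known family. The sites of novel_mir_413 were listed for mdm-miR156 in 15 gene models, with scores of 0.5 to 2.5 and counts of 28 to 677, opposite bases 10 to 12 of novel_mir_413. Those of novel_mir_262, novel_mir_268 and novel_mir_392 were listed for mdm-miR169, opposite base 10 of novel_mir_262 and novel_mir_392 and base 11 of novel_mir_268. The sites of novel_mir_156 were those of mdm-miR399, with a count of 27 in 3 gene models, and the sites of novel_mir_160 were those of mdm-miR391, with a count of 48 in 2, both opposite base 10. The site of novel_mir_116, with a count of 60 in 1 gene model, was listed for mdm-miR3627 and mdm-miR5225 and lay opposite base 12 of novel_mir_116, which had 5562 reads in J and 1459 in A.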
